A study of Mus musculus with 3 samples.

Results

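Mesenchymal cells sorted from mouse molars were compared between postnatal day 15 (P15), while the roots are still growing, and 8 weeks (8W), when the teeth are in use. The cells were chosen by measured counts, as those with at least 500 detected genes, at most 20% mitochondrial counts, no count of Ptprc, Epcam, Pecam1 or Cdh5, at most 5 counts of Hbb-bs and at least 10 counts of Col1a1. The genes of the gate mark leukocytes, epithelium, endothelium, red cells and cells with type I collagen RNA, and RNA of other cells remained in many gated cells. It kept 8039 of the 12926 cells of the P15 library (62.2%) and 4161 of the 5192 cells of the 8W library (80.1%), so 12200 cells were compared, out of 27089 in all 3 libraries of the series. The third library, from P25, was read through the same gate for side values only and gave 6833 cells.

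Both groups were Pthrp-mCherry knock-in mice, which report the gene of parathyroid hormone-related protein (PTHrP) with a red fluorescent protein, on a mostly C57BL/6 background with both sexes used. Mandibular molars were dissociated with enzymes, and PTHrP-mCherry+ cells pooled from mandibles were sorted and profiled with the 10x Chromium 3′ v3.1 chemistry. The sort limits the comparison to cells that hold the reporter protein, and each age is a single library of pooled animals. No age had a replicate, so no difference between the ages was tested, and every difference below is a difference between 2 libraries.

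The root of a molar is covered by cementum, a bone-like tissue laid down by cementoblasts, which anchors the fibres of the periodontal ligament to the tooth. The cells around the root descend from neural crest mesenchyme and include dividing precursors, ligament fibroblasts and mineral-forming cells. PTHrP is a secreted factor of this tissue that is known to act through its receptor on neighbouring mesenchymal cells and to be needed for tooth eruption.

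The gated cells held 135924815 counts of unique molecular identifiers (UMIs, single captured RNA molecules) at P15 and 41542211 at 8W, with a median of 15924 and 9495 UMIs per cell and 3988 and 2967 genes per cell. The P15 sum was thinned at random to the 8W total, and levels are given as CPM, a gene's counts scaled to a fixed total. Intervals are exact 95% Poisson or binomial intervals and cover counting error only, not the difference between animals. Cells were selected on Col1a1, with 153 cells at P15 and 117 at 8W at 10 to 12 UMIs and 196 and 97 otherwise eligible cells just outside at 7 to 9. The libraries shared 16 cell barcodes, 7 of them among gated cells. In such sums, fewer cells of a type and less RNA per cell cannot be told apart.

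The 8 mesenchymal markers were present at both ages and none differed by 2-fold, with a median log2 ratio of 0.10. Pdgfra, a receptor found on most fibroblasts, stood at 169.6 CPM at P15 and 174 CPM at 8W, and Twist1, a transcription factor of neural crest mesenchyme, at 524 CPM at P15 and 585 CPM at 8W. Col1a1, 1 of the 8, also chose the cells. Among markers of other cells, the sums for epithelium, blood and mural cells were higher at P15 and those for odontoblasts and osteoclasts at 8W. The 8 epithelial markers summed to 328 CPM at P15 and 56.5 CPM at 8W, with all 6 that reached 10 CPM at least 2-fold lower. The 6 neutrophil markers summed to 258 and 9.75 CPM, with all 5 that reached this level lower. The 7 myeloid markers summed to 37.9 and 8.14 CPM, the 5 erythroid markers to 80.98 and 18.7 CPM and the 6 mural markers to 222 and 111 CPM. Schwann cell markers summed to 44.1 and 18.2 CPM, chondrocyte markers to 146 and 131 CPM, odontoblast markers to 78.7 and 111 CPM and osteoclast markers to 406 and 598 CPM. Of 3 odontoblast markers compared, 1 was at least 2-fold higher at 8W and 1, Nes, lower, at 22.8 and 10.3 CPM. The odontoblast markers Dmp1 and Phex are also cementoblast markers. None of 3 osteoclast markers compared differed by 2-fold. Most of their sum was Ctsk, at 340 and 529 CPM, and Mmp9 stood at 27.2 and 16.8 CPM. Ctsk was found in 58.2% and 69.1% of gated cells (92.4% and 88.9% without thinning). Of cells with a Ptprc UMI, 16.4% and 19.2% held it, at a level of 326 CPM at P15 and 105 CPM at 8W. The part of osteoclast RNA in its sum was not tested. Endothelial, B-cell and muscle markers stayed under 10 CPM in sum in both libraries, and Ptprc, Epcam, Pecam1 and Cdh5 were at 0 because the gate removed them. Neutrophil RNA was widespread at P15, where S100a9 was found in 20.6% of gated cells against 1.41% at 8W (69.2% and 3.87% without thinning, and 54.1% and 15.4% of cells with a Ptprc UMI). For some of the genes that differ between the ages, the level in the other cells of the library is given below. The part of RNA from other cells in the differences was not tested.

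Of the 22056 measured genes, 8841 reached 10 CPM in at least 1 of the libraries. A gene was said to rise or fall when its CPM differed by at least 2-fold. By this rule 338 genes (3.82% of those compared) rose and 239 (2.7%) fell from P15 to 8W, 6.53% together. The median log2 ratio of all genes was -0.01, and 7444 genes (84.2%) lay within 1.5-fold. Changes of at least 4-fold were counted in 89 genes that rose and 68 that fell, and changes of at least 8-fold in 21 and 25. Among the 1671 genes with at least 100 CPM, 86 rose and 24 fell. The cells with a UMI of Ptprc, Epcam, Pecam1 or Cdh5, which were 2528 cells at P15 and 193 at 8W, held a higher level than the gated cells for 71 of the 338 genes that rose and for 111 of the 239 that fell.

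**Figure D1:**
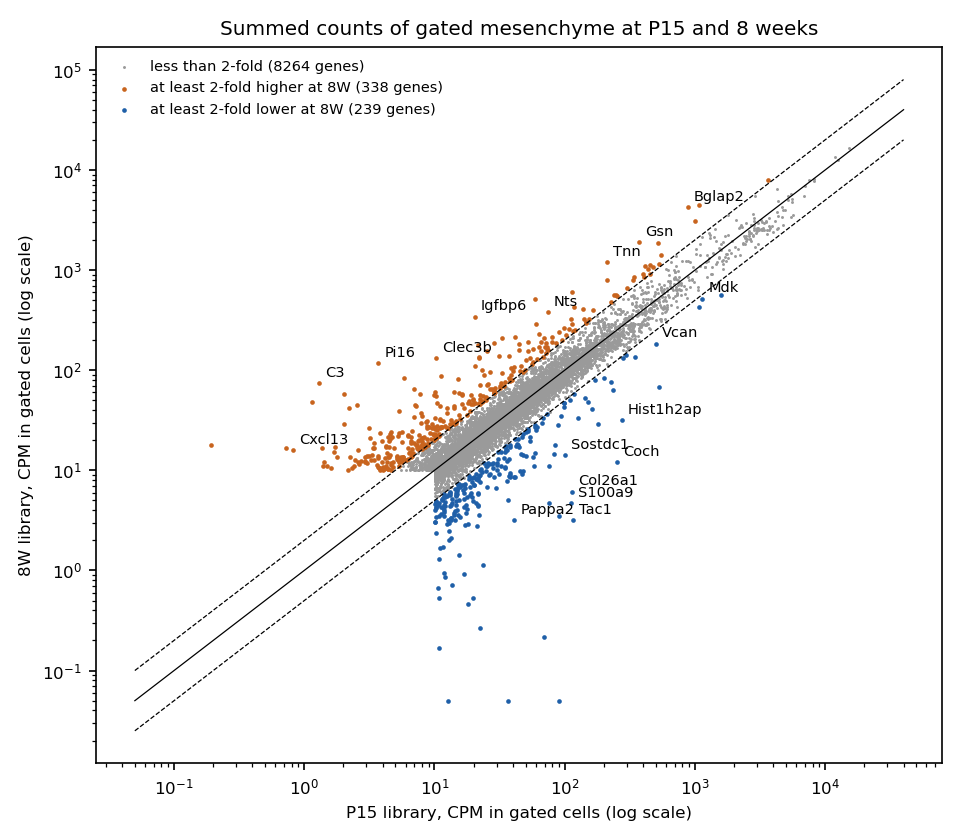
CPM of each of the 8841 compared genes in the summed gated cells at P15 (x axis) and 8W (y axis), both on log scales, with genes without a count drawn at the lower edge of the points. The solid line marks equal levels and the dashed lines 2-fold differences, and most genes lie between the dashed lines while Pi16, C3 and Cxcl13 lie far above and Tac1, Coch and Col26a1 far below.

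Several of the genes that rose most encode secreted proteins of connective tissue. Pi16, a secreted peptidase inhibitor family member that marks fibroblasts around vessels, lies on chromosome 17 from 29317680 to 29330593 of GRCm38. It held 3.68 CPM at P15 (interval 3.12 to 4.32) and 117 CPM at 8W (114 to 121), a log2 ratio of 4.99 (4.76 to 5.23). Clec3b, which encodes the plasminogen-binding protein tetranectin, held 10.3 CPM at P15 (interval 9.33 to 11.3) and 131 CPM at 8W (128 to 135), a log2 ratio of 3.67 (3.53 to 3.82). Pcolce2, an enhancer of procollagen processing, held 2.02 CPM at P15 and 58.4 CPM at 8W, and Tnxb, a tenascin that organizes collagen fibrils, held 2.21 CPM at P15 and 42.2 CPM at 8W. Mfap5, a component of elastic microfibrils, rose from 22.1 to 132 CPM, and Dpt, the collagen-binding protein dermatopontin, from 20.5 to 109.9 CPM. Each of them was low at P15, and higher by more than 4-fold at 8W.

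**Figure D2:**
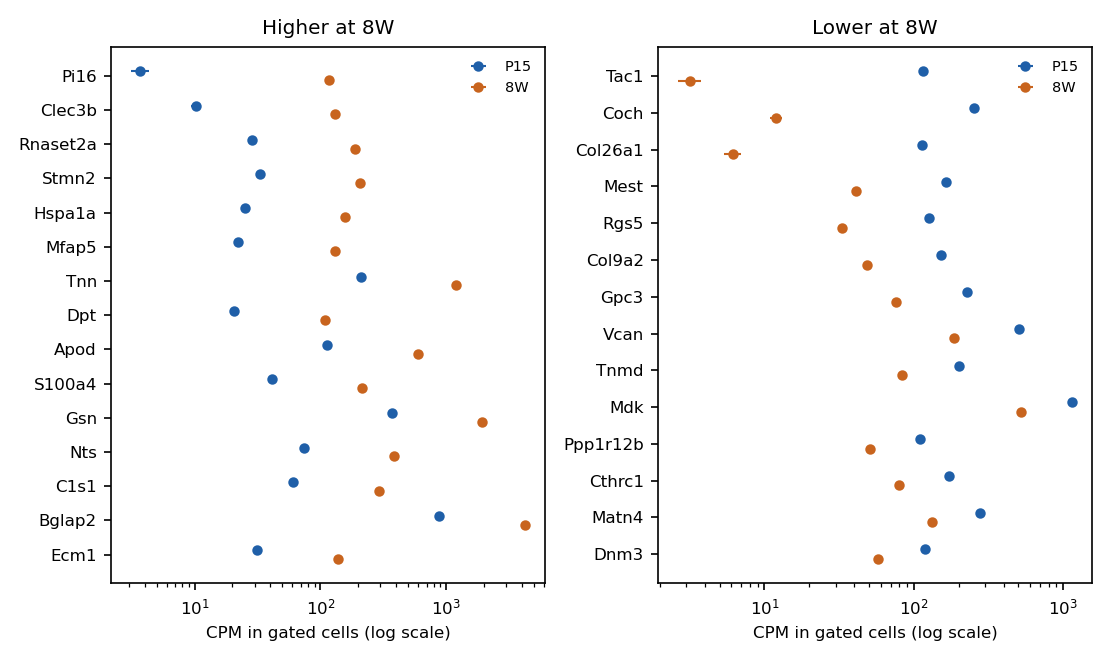
CPM in the summed gated cells at P15 (blue) and 8W (orange), on a log scale, for the 15 genes that rose most and the 14 genes that fell among those with at least 100 CPM in the higher library. Points are the 2 libraries and bars the exact 95% Poisson intervals. The genes were picked for their difference, which runs from Pi16, at 3.68 and 117 CPM, to Tac1, at 115 and 3.15 CPM.

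These genes were carried by few cells. With each cell thinned to 3000 UMIs, Pi16 was detected in 0.594% of gated cells at P15 and 4.74% at 8W (1.85% and 7.64% without thinning), and Clec3b in 1.25% and 5.30% (2.44% and 6.87%). Cells with a Ptprc UMI, which served as background at a median of 11498 and 10663 UMIs, had Pi16 in 12.8% and 7.69% and Clec3b in 0.676% and 0%. Only 26 of those cells at 8W had 3000 UMIs, so that a count of 0 allows a share of up to 11.5%. The Pi16 shares of gated cells lay below the shares of Ptprc cells, so no difference is read from them, while the Clec3b shares of gated cells at P15 lay above theirs.

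The 6 genes were found together at 8W, and only in part at P15. Cells with UMIs of at least 2 of Pi16, Clec3b, Dpt, Mfap5, Pcolce2 and Tnxb made up 98 of 7915 cells at P15 (1.24%, interval 1.01 to 1.51) and 209 of 3904 cells at 8W (5.35%, 4.67 to 6.11). Most of the latter were dense in these genes, since 177 of the 209 had at least 3 of them, against 44 of the 98 at P15. At 8W these cells held 97.1% of all Pi16 UMIs, 98.4% of Clec3b, 98.2% of Pcolce2 and 73.96% of Dpt. At P15 the 98 cells held 73.7% of Pi16, 86.6% of Clec3b, 70.1% of Mfap5 and 76.4% of Tnxb UMIs. They held only 8.92% of Pcolce2 and 13.3% of Dpt UMIs. The 6 genes were picked for their own rise at 8W, so finding more cells with them there follows in part from that choice. These cell counts and shares only describe how the counts are spread.

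Some genes that had no part in choosing the 209 cells were concentrated in them too, and others were not. Cd34, a surface sialomucin of stromal progenitors, had 95.5% of its 8W UMIs there, and the homeostatic B-cell chemokine Cxcl13 had 97.6%. The eosinophil attractant Ccl11 had 96.8% and the fibril-associated collagen Col14a1 95.7%. For Ly6a, which encodes the stem cell antigen Sca-1, the share was 70.5%. At P15 the 98 cells held 69.6% of Cd34 UMIs, 7.81% of Cxcl13, 43.6% of Ccl11, 36.7% of Col14a1 and 17.5% of Ly6a. In the 209 cells Col1a1 stood at 4115 CPM against 17169 CPM in the other 8W cells, Wif1 at 439 against 5828 CPM, and the mCherry transgene at 359 against 569 CPM. Pthlh, the gene of PTHrP, was at 216 and 239.8 CPM. Type I collagen and Wif1 RNA were thus lower in these cells than in the rest of the library.

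**Figure D3:**
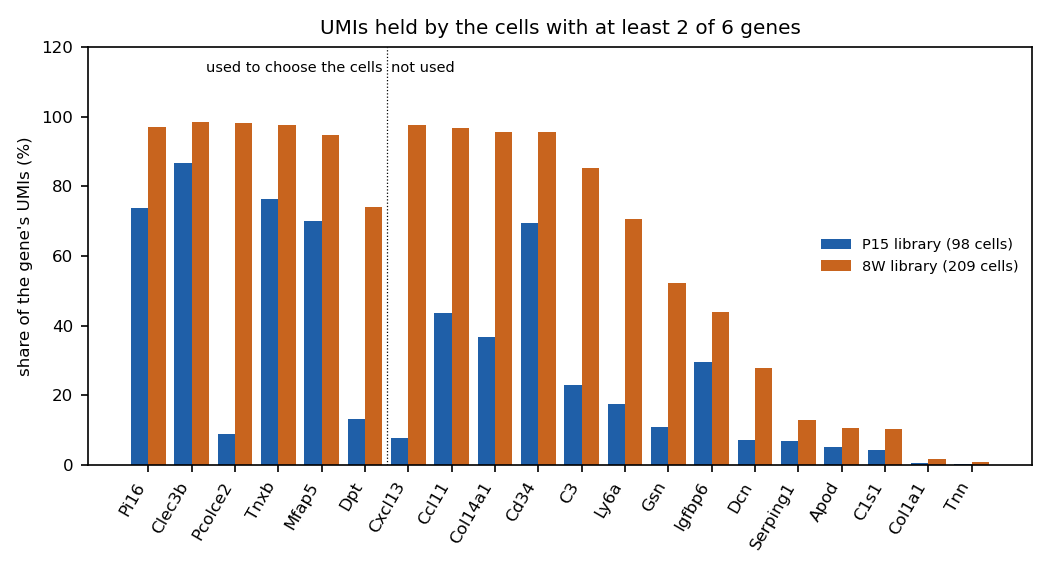
Share of each gene's UMIs (y axis, in percent) that came from cells with UMIs of at least 2 of the 6 genes left of the dotted line, at P15 (blue bars, 98 cells) and 8W (orange bars, 209 cells). Of the genes right of the line, Cxcl13, Ccl11, Col14a1, Cd34, C3 and Ly6a had from 70.5% to 97.6% of their 8W UMIs in these cells, against 10.4% for C1s1 and 1.63% for Col1a1.

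When these cells were left out at both ages, the number of genes that rose became 256 and the number that fell 253. Without them the log2 ratio of Ccl11, which had no part in choosing the cells, was -1.13. That of Mfap5 was 0.05 and that of Pcolce2 -0.56. Both genes helped to choose the cells, so the loss of their rise follows in part from that choice of cells. Igfbp6, which binds insulin-like growth factor 2 and which was higher still in other cells of the libraries, kept a log2 ratio of 3.76 after 4.07 over all gated cells, having risen from 20.4 to 343 CPM. Apod, a lipid carrier, kept 2.35 after 2.41, with 113 CPM at P15 and 602 CPM at 8W over all gated cells. Gsn, the actin-severing protein gelsolin, kept 1.53 after 2.37, with 371 CPM at P15 and 1915 CPM at 8W.

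Most of the complement genes compared rose. Of the 9 members compared, 6 rose and none fell, with a median log2 ratio of 1.90 beside -0.01 over all genes, and of 1.90 without the cells with the 6 genes. C1s1, a serine protease that starts the classical cascade, held 60.1 CPM at P15 (interval 57.8 to 62.5) and 292 CPM at 8W (286 to 297), and its partner C1ra held 52.5 CPM at P15 and 193 CPM at 8W. C1s1 was detected in 15.6% of cells at P15 and 51.2% at 8W (45.04% and 77.8% without thinning), against 4.54% and 11.5% of Ptprc cells. Serping1, which inhibits both proteases, held 211 CPM at P15 and 788 CPM at 8W, a log2 ratio of 1.90 (1.86 to 1.93). C3, the central component on which the cascades converge, rose most, from 1.30 to 74.5 CPM, and 85.3% of its 8W UMIs lay in the cells with the 6 genes. C2 rose from 4.55 to 23.2 CPM, and Cd55, a brake on complement, from 1.42 to 12.1 CPM, with a log2 ratio of -0.65 once those cells were left out. The ratios of C1ra (1.91), C1s1 (2.26), C2 (2.68), C3 (3.61) and Serping1 (1.90) stayed above 2-fold without them.

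Among extracellular matrix genes, the fibrillar collagens stayed within 2-fold with 1 exception, while several proteins that decorate the fibrils rose. Of 11 fibrillar collagens, none rose and 1 fell, the cartilage collagen Col2a1, from 16.8 to 0.915 CPM, and the median log2 ratio was 0.08. Col1a2, whose chain pairs with that of Col1a1, stood at 12516 CPM at P15 and 12454 CPM at 8W. Of 10 small leucine-rich proteoglycans, which bind collagen and growth factors, 4 rose and none fell, with a median of 0.71. Dcn, decorin, held 1009 CPM at P15 (interval 999.7 to 1019) and 3112 CPM at 8W (3095 to 3129), a log2 ratio of 1.62 (1.61 to 1.64), and 1.36 without the cells with the 6 genes. Bgn, biglycan, stood at 1098 CPM at P15 and 1814 CPM at 8W and Lum, lumican, at 2227 CPM at P15 and 2725 CPM at 8W, both within 2-fold.

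Matricellular proteins, which sit in the matrix and signal to cells more than they bear load, moved both ways. Of 23 compared, 8 rose and 3 fell, with a median of 0.33. Tnn, tenascin-W, a protein of bone and ligament surfaces on chromosome 1 from 160085029 to 160153580, held 209.6 CPM at P15 (interval 205 to 214) and 1203 CPM at 8W (1192 to 1213), a log2 ratio of 2.52 (2.49 to 2.55). It was detected in 24.9% and 54.5% of gated cells (49.9% and 72.3% without thinning), against 9.66% of Ptprc cells at P15 and none of the 26 at 8W. Sparcl1, a relative of osteonectin, held 118 CPM at P15 and 424 CPM at 8W, and Ctgf, which encodes a cysteine-rich growth factor modulator, 103 CPM at P15 and 222 CPM at 8W. Postn, periostin of the ligament, stood at 1138 CPM at P15 and 2131 CPM at 8W, short of 2-fold with a log2 ratio of 0.90. The 3 that fell were Matn4, a matrilin, from 279 to 132 CPM, Wisp1, a Wnt-induced relative of Ctgf, from 98.2 to 47.5 CPM, and Tgfbi, a TGF-β-induced adhesion protein, from 89.4 to 28.5 CPM.

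The other collagens split as well, 5 of 20 rising and 4 falling, with a median of -0.11. Col26a1 fell from 114 to 6.11 CPM and the transmembrane collagen Col13a1 from 37.3 to 8.86 CPM. Col22a1, found where tissues join, rose from 2.26 to 13.7 CPM. Elastic fibre genes had 5 of 16 members up and none down. The fibulins Fbln1 and Fbln2 rose, Fbln1 from 225 to 477 CPM and Fbln2 from 85.4 to 186 CPM, and Ltbp4, which ties latent TGF-β to elastic fibres, from 90.2 to 242 CPM. Eln, elastin itself, stood at 134 CPM at P15 and 83.96 CPM at 8W. Without the cells with the 6 genes the median of this list was 0.10 after 0.58. Of 23 proteases and inhibitors, 3 rose, among them the plasminogen activator Plat from 44.6 to 159 CPM and the metalloproteinase inhibitor Timp3 from 452 to 919 CPM. The collagenase Mmp13 stood at 305 CPM at P15 and 162 CPM at 8W. Mmp3, another metalloproteinase, fell from 44.6 to 17.04 CPM.

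Genes of mineralized matrix were higher at 8W in the sum. Of 16 compared, 6 rose and none fell, with a median log2 ratio of 0.61. Bglap2, an osteocalcin gene on chromosome 3 from 88377736 to 88378699, held 880.1 CPM at P15 (interval 871 to 889) and 4255 CPM at 8W (4235 to 4275), a log2 ratio of 2.27 (2.26 to 2.29). Its neighbours Bglap and Bglap3 are near-identical copies whose reads can be divided wrongly between them, and they held 1075 CPM at P15 and 4472 CPM at 8W and 52.2 CPM at P15 and 155 CPM at 8W respectively. Ibsp, bone sialoprotein, which seeds hydroxyapatite, held 3627 CPM at P15 and 8028 CPM at 8W, and Spp1, osteopontin, 544 CPM at P15 and 1429 CPM at 8W. Phex, an endopeptidase needed for phosphate balance, rose from 5.63 to 19.2 CPM, whereas Dmp1, its partner in that system, stood at 47.04 CPM at P15 and 81.9 CPM at 8W and Alpl, the alkaline phosphatase, at 256 CPM at P15 and 238 CPM at 8W.

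A set of mineral-forming cells was cut on 4 of these genes, so its share restates their levels. Cells with at least 5 Ibsp UMIs, or at least 2 UMIs of Dmp1, Ifitm5 and Phex together, out of 3000 made up 21.7% of the gated cells at P15 (20.8 to 22.6) and 36.4% at 8W (34.9 to 37.9). The share of Ptprc cells that held Ibsp was 26.9% at P15 and 34.6% at 8W, against 36.3% and 57.1% of gated cells (67.6% and 76.8% without thinning). Within the set, the median log2 ratio of the mineralized matrix list was 0.006. Bglap2, which did not choose the set, had a log2 ratio of 1.00 there and Spp1 one of 0.70. In the apical gate described below the ratios were 2.65 for Bglap2 and 0.34 for Spp1. In the cells of neither set they were 3.65 and 1.03, with Bglap2 at 289 CPM at P15 and 3640 CPM at 8W. Bglap2 was also found in 12.9% of Ptprc cells at P15 and 38.5% at 8W, against 26.4% and 57.9% of gated cells (44.3% and 81.1% without thinning), and the part of free RNA in the rise was not tested. The transcription factors that drive this lineage were level, Runx2 at 287 CPM at P15 and 292 CPM at 8W and Sp7 at 87.2 CPM at P15 and 102 CPM at 8W. Of 17 osteogenic factors 1 rose and 2 fell. Those that fell were Sox11, a factor of immature mesenchyme, from 33.9 to 13.3 CPM, and Msx2, a homeobox gene of tooth and skull, from 46.8 to 21.5 CPM.

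Of 25 jaw patterning genes compared, 3 rose and 2 fell, beside 3.82% and 2.7% of all genes compared. Msx2, given above, was among those that fell. Hand2, the factor that specifies the distal lower jaw, held 15.2 CPM at P15 and 82.1 CPM at 8W, and Alx1, a homeobox gene of the facial midline, 7.03 CPM at P15 and 45.04 CPM at 8W. Nts and Stmn2, which are not in this list, rose as well. Nts, the neuropeptide neurotensin, held 74.2 CPM at P15 (interval 71.6 to 76.9) and 383 CPM at 8W (377 to 389). Stmn2, a microtubule regulator best known from neurons, held 33.1 CPM at P15 and 208 CPM at 8W. Cells with at least 2 UMIs of Hand2, Nts and Alx1 outside the mineral-forming set, called the apical gate here, made up 4.02% of the gated cells at P15 and 8.30% at 8W. The gate was cut on these genes, so its share restates their levels. The other members of the list were mostly level, with 20 of 25 under 2-fold and a median of 0.02.

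Ligament and tendon genes had 4 of 13 members up and 2 down, with a median of 0.69. Scx, the transcription factor of tendon and ligament precursors, rose from 4.33 to 12.1 CPM, while Mkx, which acts later in the same lineage, stood at 25.8 CPM at P15 and 38.5 CPM at 8W. Tnmd, tenomodulin of mature tendon, fell from 201 to 82.98 CPM, a log2 ratio of -1.28 (-1.34 to -1.22). The fall of Tnmd was present in the mineral-forming set (-1.56) and in the cells of neither set (-1.44), and was under 2-fold in the apical gate (-0.41).

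Genes of antigen display and of the interferon response rose in part and did not fall. Of 12 genes of major histocompatibility complex class I antigen display, 5 rose and none fell, with a median of 0.66. H2-D1, a classical heavy chain, held 137 CPM at P15 (interval 134 to 141) and 411 CPM at 8W (405 to 417), H2-K1 72.5 CPM at P15 and 164 CPM at 8W and their shared light chain B2m 335 CPM at P15 and 570.1 CPM at 8W. The heavy chain genes resemble one another closely, so the split of reads among them is uncertain. Of 16 interferon response genes 6 rose and none fell, with a median of 0.79. Irf1, a transcription factor of this response, held 113 CPM at P15 and 286 CPM at 8W, Isg15, a ubiquitin-like modifier, 7.63 CPM at P15 and 22.3 CPM at 8W, and the membrane protein Ifitm3, which blocks viral entry, stood at 624 CPM at P15 and 1013 CPM at 8W. The Ptprc cells held H2-D1 in 84.3% and 100.0% of cells, more than the 31.4% and 61.2% of gated cells (78.3% and 85.1% without thinning), and the part of such cells' RNA in the rise was not tested.

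The promoters of 2 interferon genes are shown because GAAA followed after any 2 bases by GAAA, the core of the element bound by the interferon-activated factors, occurs in several members. Promoters from RefSeq on GRCm38.p6, from 250 bases before to 50 after the start, were found for 12 of the 16 genes, and 8 of these held this core on either strand, beside 3.44% of all 32851 promoters of this length. Matches are in capitals, and those of Isg15 overlap one another. Isg15 lies at chr4:156200769-156201068 on the minus strand with 3 matches and Ifitm3 at chr7:141010695-141010994 on the minus strand with 2.
Isg15: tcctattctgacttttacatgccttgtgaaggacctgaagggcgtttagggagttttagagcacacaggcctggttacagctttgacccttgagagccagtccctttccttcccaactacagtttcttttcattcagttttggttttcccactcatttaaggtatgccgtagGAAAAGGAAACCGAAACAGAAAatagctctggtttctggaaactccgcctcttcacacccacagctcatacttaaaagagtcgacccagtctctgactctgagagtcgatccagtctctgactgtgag
Ifitm3: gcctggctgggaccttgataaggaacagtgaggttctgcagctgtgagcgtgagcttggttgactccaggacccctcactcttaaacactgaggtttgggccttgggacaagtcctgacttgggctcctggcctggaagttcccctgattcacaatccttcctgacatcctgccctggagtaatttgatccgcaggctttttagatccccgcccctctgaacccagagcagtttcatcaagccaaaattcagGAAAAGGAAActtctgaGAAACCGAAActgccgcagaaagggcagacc

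Among the class I genes 3 of the 11 with a promoter held this core, B2m, H2-T22 and H2-T23. A match describes the sequence and is not a measured binding site.

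Chemokines and cytokines had 7 of 13 members up and 2 down, with a median of 1.26, which became 0.16 without the cells with the 6 genes. Cxcl5, a neutrophil attractant, rose from 11.3 to 87.3 CPM and kept a log2 ratio of 3.05 without those cells. It was detected in 0.846% and 2.13% of gated cells (2.38% and 3.12% without thinning). The other cells held more of it, at 50.3 CPM at P15 and 123 CPM at 8W. Cxcl1, of the same kind, held 72.2 CPM at P15 and 187 CPM at 8W. Il1rl1, the receptor of interleukin-33, fell from 21.4 to 4.45 CPM, and Cxcl14 fell from 35.5 to 15.9 CPM. The monocyte attractants Ccl2 and Ccl7 rose to 25.1 and 21.3 CPM, with 486 and 319 CPM in the other cells of the same library.

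Some early response and stress genes rose. Of 21 immediate early genes 5 rose and none fell, with a median of 0.69 over all gated cells, 1.15 in the cells of neither set and -0.20 in the mineral-forming set. Klf4 held 438 CPM at P15 and 1024 CPM at 8W and Klf2 415 CPM at P15 and 1096 CPM at 8W, both Krüppel-like factors, and Fos, a subunit of the AP-1 factor, stood at 4242 CPM at P15 and 6507 CPM at 8W. Of 13 heat shock genes 4 rose and none fell, with a median of 0.24 and a log2 ratio below 0 in 5 of them. Hspa1a held 25.3 CPM at P15 and 157 CPM at 8W and its near-identical neighbour Hspa1b 7.15 CPM at P15 and 43.8 CPM at 8W, and reads of this pair may be divided wrongly. The cochaperone Dnajb1 held 97.97 CPM at P15 and 267 CPM at 8W. Both kinds of gene are known to be induced quickly by many stimuli. Gpx3, a secreted glutathione peroxidase, rose from 519 to 1844 CPM and Scd1, a fatty acid desaturase, from 14.2 to 60.1 CPM.

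Most signalling genes differed by less than 2-fold, and several Wnt modulators fell. Of 13 Wnt inhibitors 2 fell and none rose, but the list leaned up, with a median of 0.26 and a log2 ratio above 0 in 10 of them. Notum, an enzyme that strips the lipid from Wnt proteins, held 36.8 CPM at P15 (interval 34.9 to 38.6) and 5.03 CPM at 8W (4.37 to 5.76), and Sostdc1, which blocks Wnt co-receptors and bone morphogenetic proteins, held 99.97 CPM at P15 (interval 96.95 to 103) and 14.2 CPM at 8W (13.1 to 15.4). Both fell in the mineral-forming set (-3.75 and -2.72) and in the cells of neither set (-2.50 and -2.39). Wif1, which binds Wnt ligands and is the most abundant member, stood at 2915 CPM at P15 and 5470.2 CPM at 8W, a log2 ratio of 0.91. The log2 ratio of Wif1 was 0.56 in the mineral-forming set and 1.13 in the cells of neither set, opposite in sign to Notum and Sostdc1.

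Wnt enhancers and response genes leaned down, 5 of 15 falling and none rising, with a median of -0.42. Notum, a target as well as an inhibitor, is counted in both lists. The R-spondins, secreted proteins that keep Wnt receptors on the surface, fell together. Rspo3 held 12.999 CPM at P15 and 1.998 CPM at 8W, Rspo2 19.4 CPM at P15 and 8.38 CPM at 8W and Rspo1 43.96 CPM at P15 and 20.4 CPM at 8W. Lef1, a nuclear partner of β-catenin, stood at 89.9 CPM at P15 and 51.01 CPM at 8W. Of 8 Wnt ligands, Wnt5b and Wnt9a rose, to 47.04 and 23.1 CPM from 20.5 and 10.1, and Wnt4, with 172 CPM in the other cells at P15, fell from 20.2 to 8.64 CPM.

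In the list kept for PTHrP, the 4 members compared were Pthlh, Pth1r, Gnas and the chemokine Cxcl12. All 4 differed by less than 2-fold over all gated cells. Cxcl12 had log2 ratios of 1.32 in the cells of neither set and -1.96 in the mineral-forming set. Pthlh held 162 CPM at P15 (interval 158 to 166) and 238 CPM at 8W (234 to 243), a log2 ratio of 0.56 (0.51 to 0.60), and its receptor Pth1r 68.4 CPM at P15 and 49.9 CPM at 8W. Cells were sorted on a reporter in the Pthlh locus, so this level is not independent of the sort. Among insulin-like growth factor genes, 4 of 13 rose and 1 fell. Igfbp3, the main carrier in serum, rose from 453 to 1133 CPM, and Pappa2, a protease that frees the growth factor from such carriers, fell from 41.1 to 3.15 CPM. The ligands Igf1 and Igf2 were level, at 623 CPM at P15 and 569.5 CPM at 8W and at 270.3 CPM at P15 and 243 CPM at 8W. In the TGF-β list 3 of 16 rose and 1, Tgfbi, fell, with a median of 0.57. Those that rose were Ltbp4 and the receptors Tgfbr2, from 61.6 to 130.3 CPM, and Tgfbr3, from 14.1 to 43.6 CPM. In the Hedgehog list 2 of 8 rose and 1 fell, with a median of -0.18. Gas1, a co-receptor and growth arrest gene, rose from 339 to 845 CPM. Ptch1, receptor and target of the pathway, stood at 111 CPM at P15 and 61.8 CPM at 8W. The list of fibroblast growth factor genes leaned down, with a median of -0.12 and a log2 ratio below 0 in 7 of 12. Its ligands Fgf7 and Fgf9 rose to 20.03 and 26.5 CPM from 9.92 and 9.56, and none fell by 2-fold. Fgf7 lay close to the limit, with a log2 ratio of 1.01.

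Tac1 and Coch fell most among genes of at least 100 CPM that were not higher in the other cells, and were detected in a minority of cells at P15. Tac1, the precursor of the neuropeptide substance P, lies on chromosome 6 from 7554879 to 7565834 and held 115 CPM at P15 (interval 112 to 118) and 3.15 CPM at 8W (2.64 to 3.74), a log2 ratio of -5.19 (-5.45 to -4.94). Coch, an extracellular protein named for the cochlea, held 253 CPM at P15 (interval 248 to 258) and 11.99 CPM at 8W (10.96 to 13.1), a log2 ratio of -4.40 (-4.53 to -4.27). With 3000 UMIs per cell, Tac1 was detected in 12.6% of cells at P15 and 0.717% at 8W (21.2% and 1.20% without thinning) and Coch in 16.9% and 1.66% (29.4% and 3.32%). Ptprc cells had Tac1 in 3.77% and Coch in 5.70% at P15, and none of the 26 at 8W had either. In all 3 sets of cells both genes fell by more than 8-fold, with log2 ratios of -5.91 in the mineral-forming set and -4.67 in the cells of neither set for Tac1, which had no count in the apical gate at 8W, so that its -6.64 there is a bound set by 3 counts, and from -7.36 to -3.64 for Coch. Cort, which encodes the neuropeptide cortistatin and is named here after its values were seen, fell with them, from 69.1 to 0.217 CPM.

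Mest, an imprinted gene of embryonic mesoderm, fell as well and held 163 CPM at P15 (interval 159 to 167) and 40.7 CPM at 8W (38.8 to 42.7) and was detected in 30.5% and 9.04% of cells (63.4% and 23.5% without thinning, and 8.79% of Ptprc cells at P15). Vcan, the large proteoglycan versican of provisional matrix, held 504 CPM at P15 and 185 CPM at 8W. Mdk, the heparin-binding growth factor midkine, held 1139.6 CPM at P15 and 519 CPM at 8W, with a log2 ratio of -0.07 in the mineral-forming set and -1.33 in the cells of neither set. Gpc3, a glypican that restrains growth, held 228 CPM at P15 and 76.3 CPM at 8W, Cthrc1, a collagen triple helix repeat protein 172 CPM at P15 and 79.4 CPM at 8W. Col9a2, a cartilage-type collagen, held 151 CPM at P15 and 48.3 CPM at 8W. Rgs5, a marker of mural cells, fell from 125 to 32.95 CPM and was 1 of 3 members that fell of 5 compared in the mural list. The share of thinned gated cells with Rgs5 did not fall, at 5.93% and 7.74% (16.2% and 15.4% without thinning, and 3.77% of Ptprc cells at P15). Genes that fell but were higher in the other cells of the library included S100a9, a neutrophil protein, from 113 to 4.67 CPM, and Krt14, an epithelial keratin, from 179 to 28.7 CPM. Imprinted growth genes as a list were mostly level, 2 of 14 falling with a median of -0.24, and the growth-related RNA-binding and chromatin genes Igf2bp2 and Hmga2 fell to 7.08 and 5.08 CPM from 16.7 and 15.3.

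Most mitosis genes and several replication genes fell. Of 16 mitosis genes 12 fell and none rose, with a median log2 ratio of -1.30, and of 15 replication genes 7 fell, with a median of -0.83. Ccnb2, a cyclin of mitotic entry, held 21.7 CPM at P15 and 4.41 CPM at 8W, Birc5, the chromosomal passenger survivin, 38.3 CPM at P15 and 9.51 CPM at 8W, and Cdk1, the kinase that drives mitosis, 19.4 CPM at P15 and 5.46 CPM at 8W. Top2a, the topoisomerase that untangles sister chromatids, stood at 58.1 CPM at P15 and 30.2 CPM at 8W. Stmn1, which destabilizes microtubules, held 235 CPM at P15 and 63.2 CPM at 8W, and Hmgn2, a nucleosome-binding protein of proliferating tissue, 347 CPM at P15 and 135 CPM at 8W. The other cells held more of both, Stmn1 at 321 and 353 CPM and Hmgn2 at 351 and 196 CPM. The histone gene Hist1h2ap held 274 CPM at P15 and 31.9 CPM at 8W, with 413 CPM in the other cells at P15, and its copies are alike enough for reads to be split between them. Pcna, which also serves DNA repair, did not follow and stood at 37.4 CPM at P15 and 64.2 CPM at 8W.

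A set of cycling cells was cut on members of the mitosis list, so its share restates the levels above. Cells with at least 2 UMIs of Top2a, Mki67, Cenpf, Ccna2 and Birc5 together, out of 3000, made up 6.05% of the gated cells at P15 (5.54 to 6.60) and 1.18% at 8W (0.864 to 1.57). The fall was not found in all of the mesenchyme, since the median of the mitosis list was 0.34 in the mineral-forming set, -0.64 in the apical gate and -2.77 in the cells of neither set. The other cells of the libraries held Mki67 at 99.4 CPM at P15 and 186 CPM at 8W.

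Promoters of Top2a and Cdk1 are shown because most mitosis genes share short letters in this window. CCAAT, the box bound by NF-Y, was found on either strand in 11 of the 13 genes with a promoter, beside 37.4% of all promoters, and TTTGAA, the core of the cell cycle homology region, in 11 of 13, beside 17.9%. Matches on either strand are in capitals, and none of those printed overlap. Top2a lies at chr11:99024140-99024439 on the minus strand with 6 matches of CCAAT and 2 of TTTGAA, and Cdk1 at chr10:69352863-69353162 on the minus strand with 3 and 2.
Top2a: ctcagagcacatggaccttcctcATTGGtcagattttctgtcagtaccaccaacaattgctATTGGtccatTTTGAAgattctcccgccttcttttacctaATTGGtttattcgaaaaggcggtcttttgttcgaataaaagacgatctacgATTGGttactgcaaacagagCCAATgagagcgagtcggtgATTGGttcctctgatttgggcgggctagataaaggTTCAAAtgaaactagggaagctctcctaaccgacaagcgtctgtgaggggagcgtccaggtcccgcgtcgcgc
Cdk1: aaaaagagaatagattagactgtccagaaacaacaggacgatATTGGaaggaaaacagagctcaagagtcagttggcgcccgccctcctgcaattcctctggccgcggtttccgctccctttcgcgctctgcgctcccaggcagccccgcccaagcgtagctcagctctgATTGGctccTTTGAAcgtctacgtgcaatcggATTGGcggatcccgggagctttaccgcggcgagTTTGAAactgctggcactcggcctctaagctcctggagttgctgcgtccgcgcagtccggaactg

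In the replication list TTTCCCGC was found in 3 of 12 genes with a promoter (1.07% of all promoters) and TTTGGCGC in 3 of 12 (0.514%). Among clock genes CACGTG was found in 4 of 13 (7.15%), and among immediate early genes TGACGTCA was found in 2 of 18 (1.79%) and the serum response element in 1 exact form in 0 of 18 (0.0639%). For every list the count is of genes with a match in any of their promoters, while the percentages count single promoters. The list shares and the percentages are therefore not on the same footing. These letters say nothing of whether a factor was bound in these cells.

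The machinery of protein synthesis and respiration was level or slightly lower. None of 25 large and 22 small ribosomal protein genes differed by 2-fold, with medians of -0.30 and -0.31. None of 31 nuclear genes of oxidative phosphorylation did, with a median of -0.34 and a log2 ratio below 0 in 30 of them. The 13 genes of the mitochondrial genome had a median of 0.03. Of 28 genes of folding and secretion none differed by 2-fold, and their median was -0.09.

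**Figure D4:**
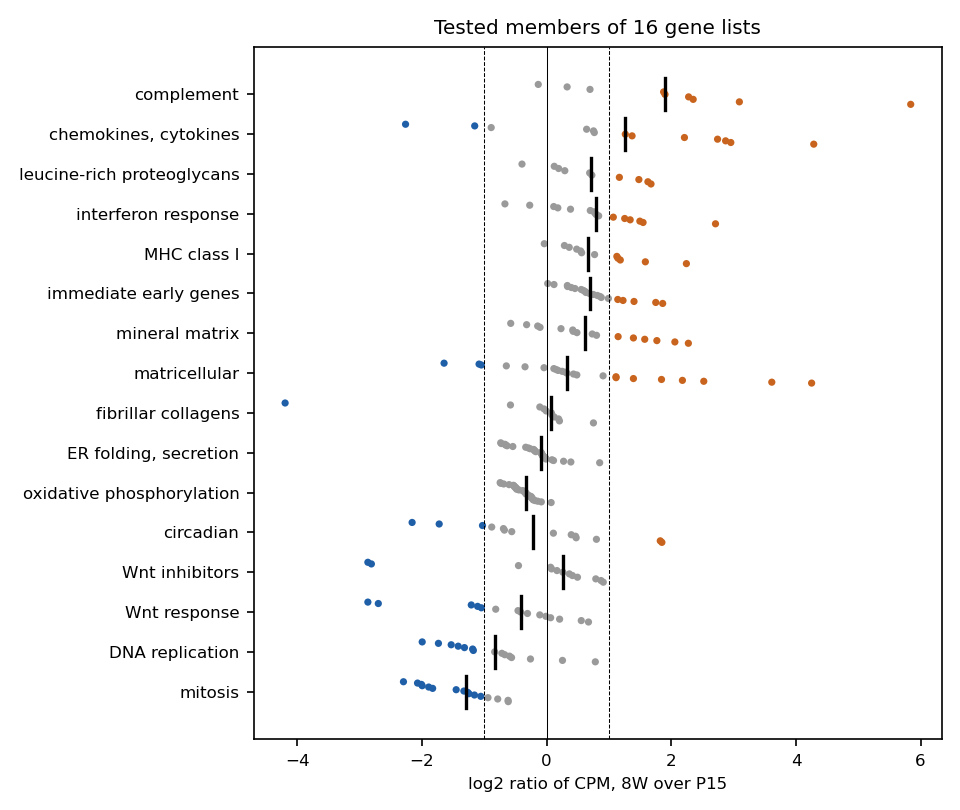
Log2 ratio of CPM, 8W over P15, of each compared member of 16 gene lists, with orange points for members that rose at least 2-fold, blue points for members that fell and grey points for the rest. Black bars are list medians, which run from 1.90 for complement to -1.30 for mitosis, and dashed lines mark 2-fold.

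The ages were also compared within the 3 sets of cells, since the shares of the sets differed. The mineral-forming set held 1715 cells at P15 and 1420 at 8W, the apical gate 318 and 324, and the cells of neither set 5882 and 2160. Of the 338 genes that rose, 164 rose in the mineral-forming set, 181 in the apical gate and 303 in the cells of neither set, and 86 rose in all 3. Of the 239 that fell, 156, 161 and 203 fell in these sets and 101 in all 3. These genes were called on the sum of the same cells, so part of the agreement is built in. Over all genes compared within each set, 212 of 8460, 462 of 8718 and 542 of 8944 rose, and 226, 346 and 324 fell. With both ages given 1 common mixture of the 3 sets, 284 of the 338 and 208 of the 239 still differed by 2-fold in the same direction. Over all 8849 genes compared in that mixture, which again holds the same cells, 360 rose and 221 fell. Among the genes that rose in every set were Dcn (1.40, 1.22 and 1.86 in the mineral-forming, apical and remaining cells), C1s1 (2.63, 1.83 and 2.44) and Tnn (3.52, 1.97 and 1.22). Among those that fell in every set were Gpc3 (-1.42, -1.69 and -1.29), Mest (-1.09, -1.56 and -2.08) and Sostdc1 (-2.72, -2.92 and -2.39).

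**Figure D5:**
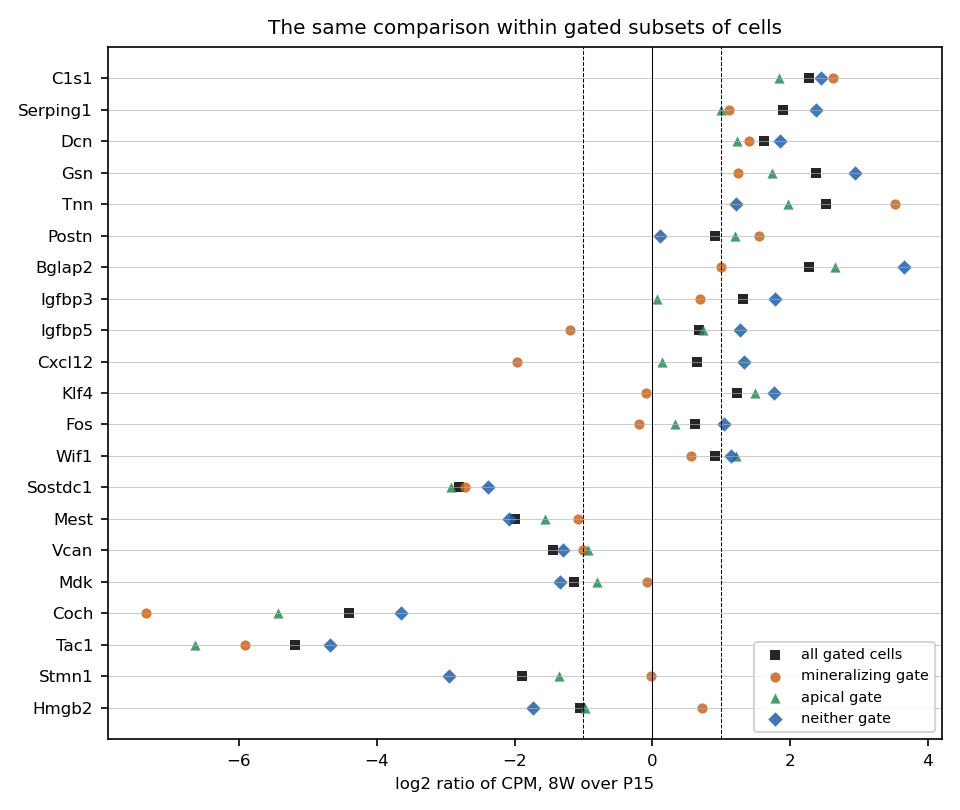
Log2 ratio of CPM, 8W over P15, of 21 genes in all gated cells (black squares), the mineral-forming set (orange circles), the apical gate (green triangles) and the cells of neither set (blue diamonds), with dashed lines at 2-fold and the apical value of Tac1 a bound. C1s1, Dcn and Gsn lie above 2-fold and Sostdc1, Mest, Coch and Tac1 below it in every set, while the values of Igfbp5, Cxcl12, Stmn1 and Hmgb2 spread over more than 2 log2 units across the sets.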

How the data were processed

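Single-cell RNA-seq was read from 3 libraries of sorted molar cells, of which P15 and 8W were compared. Per the labels the reads were processed with Cell Ranger 6.1.2 on mm10, but the header of the P25 file names an earlier release, so P25 levels come from a different reference table and are side values only. The authors deposited UMI counts per gene and cell, not normalized, for 22056 features at P15 and 8W and 32293 at P25, of which 21446 were shared. From these counts the gated cells were summed per library, the P15 sum of 135924815 UMIs was thinned without replacement to 41542211, and CPM, exact Poisson intervals and log2 ratios were computed (Python 3.11.15, numpy 2.4.6, scipy 1.17.1, pandas 2.3.3, matplotlib 3.10.9). Genes with at least 10 CPM in either sum were compared and called at 2-fold. No test was made between the ages. A count of 0 took a floor of 3 counts. Doublets were not called in these data, apart from the removal of cells with counts of other lineages. Cells thinned to 3000 UMIs gave shares and the mineral-forming, apical and cycling sets.

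The members and the 66 gene lists were chosen with earlier results of these data known. Of 956 list symbols 948 were matched, some through older names, and where features shared a symbol the one with the most counts was used. Named genes were the 15 with the highest and the lowest ratios (14 qualified) among those with at least 100 CPM in the higher library, leaving out gate, mitochondrial, haemoglobin, sex-linked and unnamed genes, and with those higher in the other cells kept apart (the 5 largest each way). From each list the 4 largest ratios among members with at least 20 CPM and the most abundant member were added. Chosen after their values were seen were Alpl, C1ra, Ccl2, Cd34, Cd55, Cdk1, Cort, Ctgf, Cxcl14, Eln, Ifitm3, Igf1, Igf2, Lum, Mki67, Mkx, Mmp13, Pcna, Postn, Rspo2, Rspo3, Runx2, Scx, Sp7 and Top2a. Clock, Col22a1, Cxcl13, Nr1d1 and Tef also lay outside the naming rules. Positions are those of GRCm38, matched by gene identifier for 21781 features, and promoters are from RefSeq. Another 17 settings changed the scaling (TMM from edgeR 4.0.16, median of ratios from DESeq2 1.42.0, R 4.3.3), the filter, the thinning and the cells kept, and 2 were added after the data were seen.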

Additional observations from a re-analysis of the deposited data

Results flagged for a closer look

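A pair of genes moved in opposite directions in different sets of cells. Cxcl12, a chemokine that holds stem and immune cells in place, had a log2 ratio of 8W over P15 of 1.32 in the cells of neither set and of -1.96 in the mineral-forming set. Igfbp5, a binding protein of insulin-like growth factors in bone matrix, had 1.28 in the cells of neither set and -1.20 in the mineral-forming set. Without the cells with the 6 genes the ratio of Igfbp5 over all gated cells was -0.04 and that of Cxcl12 0.69. With them both stayed within 2-fold, at 0.64 for Cxcl12 and 0.68 for Igfbp5. Each age is 1 library, and the difference between the sets was not tested.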

How the results depend on the processing

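The count of 338 genes that rose became 1120 with no filter on low counts, 135 at 50 CPM or more, 524 without cells with UMIs of other cell types (which left 176 cells at P15 and 2414 at 8W), 212 in the mineral-forming set alone and 542 in the cells of neither set. The count of 239 genes that fell became 1747 with no filter and 53 at 50 CPM or more. TMM scaling gave 359 and 229, median-of-ratios scaling 351 and 233, and the other alternatives also stayed within 1.5-fold of both counts, including an equal mixture of the sets (360 and 221) and the removal of the cells with at least 2 of the 6 genes (256 and 253), which were both chosen after seeing the data. With the Col1a1 gate set at 10 of 3000 UMIs in each thinned cell, 240 genes rose and 201 fell. The median of all genes moved by less than 0.1 on the log2 scale throughout. Of 140 named genes that were called, 128 kept their sign in the mineral-forming set, 132 of 139 in the apical gate, 138 in the cells of neither set, 129 of 134 without cells with UMIs of other types and 137 without the cells with the 6 genes, and all 140 did under the remaining alternatives. Fewer still differed by 2-fold, with 84 in the mineral-forming set, 93 of 139 in the apical gate and 123 in the cells of neither set. The number was 115 of 134 without cells with UMIs of other types, 123 without the cells with the 6 genes and 118 with at least 10 Col1a1 of 3000 UMIs. Among list medians of at least 1 in size on the log2 scale, those that changed sign were, over the members compared within each setting, those of mural markers (0.32 in the mineral-forming set and 0.95 without cells with UMIs of other types), chondrocyte markers (0.26 at 50 CPM or more), mitosis genes (0.39 in the mineral-forming set) and chemokines (-0.0232 there). The members compared differ between settings. Over the members compared in all gated cells, the mural medians were -1.59 in the mineral-forming set and 0.33 without cells with UMIs of other types. On that footing the mineral-forming set gave 0.34 for mitosis genes and 0.20 for chemokines, so the mural and chemokine medians kept their sign there. Smaller medians, over the members compared in all gated cells, also turned. Those were immediate early genes (-0.20), DNA replication (0.46) and the IGF axis (-0.22) in the mineral-forming set, and interferon genes (-0.16) in the apical gate, among others. In the mineral-forming set the log2 ratio turned for Cxcl1 (-0.0232), Fgf7 (-0.0832), Hells (0.43), Hmgb2 (0.71), Igfbp2 (-0.27), Klf4 (-0.0948), Lmnb1 (0.20), Mcm3 (0.36), Mcm6 (0.22), Mmp3 (0.70), Tyms (0.59) and Wisp2 (-0.62). In the apical gate it turned for Ccl11 (-0.10), Dio2 (0.29), Igfbp2 (-2.60), Isg15 (-0.19), Itga4 (0.0395), Prelp (-1.08) and Wisp2 (-1.70), and in the cells of neither set for Nts (-0.20) and Wnt5b (-0.44). Without cells with UMIs of other types it turned for Hells (0.25), Hist1h2ap (0.17), Mcm3 (0.16) and Mmp3 (0.39), and without the cells with the 6 genes for Ccl11 (-1.13), Col14a1 (-1.88) and Pcolce2 (-0.56). Nts helped to set the apical gate and Pcolce2 was 1 of the 6 genes, so their shifts follow in part from how the cells were chosen. The cause of the other shifts was not tested. No paired analysis was possible because each age is 1 library without a replicate number. Each age is 1 library, so differences between animals, sorts and runs cannot be told apart from age. Depth limits the low genes, where 3 counts of the summed UMIs are 0.0722 CPM. It also bears on which cells passed the gate, which was set on raw UMIs. The gated cells had a median of 15924 UMIs at P15 and 9495 at 8W.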

Other observations

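Clock genes differed between the libraries in opposite directions. Arntl, the positive arm of the circadian clock, held 8.79 CPM at P15 and 31.1 CPM at 8W and its relative Npas2 held 6.28 CPM at P15 and 22.6 CPM at 8W. The output factor Dbp held 29.5 CPM at P15 and 6.60 CPM at 8W, Per3, a repressor of the loop, 34.6 CPM at P15 and 10.5 CPM at 8W and Tef, a relative of Dbp, 35.3 CPM at P15 and 17.3 CPM at 8W. Of 14 clock genes compared, 2 rose and 3 fell, and Nr1d1 and Clock stood at 31.4 CPM at P15 and 33.8 CPM at 8W and at 70.9 CPM at P15 and 97.7 CPM at 8W. The P25 library held Arntl at 27.6 CPM and Dbp at 7.38 CPM. The hour of collection is not given in the sources used here.

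Genes that lay outside the named genes and were picked after their values were seen included further connective tissue genes. Prg4, lubricin of joint and tendon surfaces, held 1.16 CPM at P15 and 47.6 CPM at 8W, Has1, a hyaluronan synthase, 2.55 CPM at P15 and 45.4 CPM at 8W and Myoc, myocilin, 0.193 CPM at P15 and 17.8 CPM at 8W. Amelx, the enamel protein amelogenin made by ameloblasts, held 90.9 CPM at P15 and no count at 8W. The P25 library, gated alike but counted with another release and reference table, held Tac1 at 14.7 CPM, Coch at 101 CPM, Tnn at 895 CPM and Bglap2 at 1899 CPM.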
